A study of Homo sapiens with 18 samples.

Results

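The genes described here are 55 genes of the mitotic spindle, the kinetochore and condensin, listed by name for their roles in cell division, with earlier results of these data known, and matched to the 62703 annotated genes of each count file by Ensembl identifier. All 55 were found once each, and all 55 had enough reads to be tested in every comparison, among 15373 genes tested in the knockdown experiment and 14632 in the inhibitor experiment. They were measured by polyA RNA-seq in MDA-MB-231, a human triple-negative breast cancer cell line that lacks estrogen receptor, progesterone receptor and HER2. In the knockdown experiment, cells received lentivirus for 24 h that carried a control hairpin (Control shRNA) or one targeting EZH2 (shEZH2) or E2F1 (shE2F1), and all 3 groups were then selected in 2 µg/ml puromycin for 72 h. In the inhibitor experiment, cells were kept for 72 h in the solvent (DMSO) or in 1 µM GSK126, which inhibits the methyltransferase activity of EZH2. Each of the 5 groups had 2 distinct libraries, with 13198932 to 20055550 expected counts per library. The labels name 1 hairpin condition for each target, so effects of a hairpin on other transcripts cannot be told apart from effects of losing its target. The labels do not say whether the 2 libraries of a group came from separate cultures, so the tests measure the spread between these libraries, which may be technical.

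Entry into mitosis is driven by the kinase CDK1 bound to cyclin B. Condensin and topoisomerase II then compact the chromosomes, kinetochores built on CENPA chromatin attach them to spindle microtubules, and the spindle checkpoint holds back the anaphase-promoting complex until all chromosomes are attached. Anaphase begins when CDC20 activates this complex, cyclin B and securin are destroyed, and separase cuts the cohesin that holds sister chromatids together. Most of these genes are transcribed in G2 and mitosis and are low in resting cells, so in bulk RNA a lower level per cell and a smaller share of cells in division cannot be told apart. By flow cytometry, the study reported more cells in G2/M and fewer in G1 after either knockdown. How those shares bear on the RNA levels was not tested.

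The levels of the targeted genes were checked first. EZH2 was at 153 and 181 CPM (read counts scaled to library size with edgeR's TMM factors) with Control shRNA and fell to 52.7 and 44.8 CPM with shEZH2, a log2 change of -1.79 ± 0.12 (SE). E2F1, a transcription factor of the G1 to S transition, was at 143 and 138 CPM with Control shRNA and at 26.0 and 22.5 CPM with shE2F1, a log2 change of -2.54 ± 0.24. The hairpin against EZH2 also came with lower E2F1, at 62.5 and 32.3 CPM, and EZH2 in the shE2F1 libraries was at 121 and 137 CPM. GSK126 moved neither transcript past the test, with log2 changes of 0.14 ± 0.11 for EZH2 and 0.20 ± 0.16 for E2F1. As for the cell line, VIM, CD44 and AXL were at 424 CPM or more in every library, ESR1, FOXA1, PTPRC and CDH5 were below 1 CPM, PECAM1 reached 1.35 CPM, and PGR and CD3E had no count, which allows up to 0.227 CPM in the shallowest library. GATA3 was present at 8.7 to 16.4 CPM. VIM was at 3217 and 3522 CPM with Control shRNA and at 1420 and 1281 CPM with shEZH2, and AXL at 1939 and 2136 CPM against 678 and 477 CPM. The reference transcripts GAPDH and ACTB, looked at after their values were seen, moved too: GAPDH was at 5457 and 5820 CPM with Control shRNA, 796 and 619 CPM with shEZH2 and 2891 and 2447 CPM with shE2F1. ACTB was at 5497 and 5891 CPM, 4277 and 4208 CPM, and 2871 and 2428 CPM in the same order. The part of these shifts in the members' changes was not tested.

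Many promoters of mitotic genes carry a CHR element (TTTGAA or TTCGAA), bound by the DREAM and MuvB complexes, and CCAAT boxes, bound by NF-Y. RefSeq promoter windows of 300 bases (250 before to 50 after the start, GRCh38.p14) were matched for 48 of the 55 genes. CHR letters were present on either strand in 36 of these 48 windows (75.0%), against 16.6% of all 27305 windows. CCAAT was present in 37 (77.1%), against 35.7% of all windows, and both were present in 29 (60.4%), against 6.58%. An E2F element (TTTCCCGC, TTTCGCGC, TTTGCCGC or TTTGGCGC) was present in 3, those of CDK1, CENPA and NUSAP1 (6.25%), against 3.33% of all windows. AURKA, BIRC5, BUB3, KNL1, TPX2, TTK and UBE2C had no matched window. The following 120 bases end at the base before the annotated start and are shown for members whose changes are described below, with CHR and CCAAT letters of either strand in capitals (a CCAAT box on the other strand reads ATTGG).
PLK1, chr16:23678769-23678888, plus strand: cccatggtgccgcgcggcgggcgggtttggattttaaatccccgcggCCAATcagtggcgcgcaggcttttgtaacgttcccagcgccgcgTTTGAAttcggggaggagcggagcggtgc
CCNB2, chr15:59105026-59105145, plus strand: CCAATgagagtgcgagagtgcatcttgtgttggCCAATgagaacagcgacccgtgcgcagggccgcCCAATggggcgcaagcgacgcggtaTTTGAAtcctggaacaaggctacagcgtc
CDC20, chr1:43358861-43358980, plus strand: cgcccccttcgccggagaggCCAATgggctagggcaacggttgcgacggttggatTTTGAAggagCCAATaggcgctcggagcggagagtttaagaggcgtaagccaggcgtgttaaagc
ESPL1, chr12:53268179-53268298, plus strand: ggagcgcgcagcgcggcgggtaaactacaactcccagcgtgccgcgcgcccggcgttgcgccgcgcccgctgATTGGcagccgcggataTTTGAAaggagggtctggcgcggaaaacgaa
KIF20A, chr5:138178992-138179111, plus strand: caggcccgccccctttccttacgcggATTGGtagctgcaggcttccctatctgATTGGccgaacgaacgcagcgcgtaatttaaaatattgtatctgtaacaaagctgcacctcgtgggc
CENPF, chr1:214603075-214603194, plus strand: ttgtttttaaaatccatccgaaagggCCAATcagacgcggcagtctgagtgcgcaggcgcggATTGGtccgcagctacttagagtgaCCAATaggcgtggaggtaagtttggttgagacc
AURKB, chr17:8210226-8210345, minus strand: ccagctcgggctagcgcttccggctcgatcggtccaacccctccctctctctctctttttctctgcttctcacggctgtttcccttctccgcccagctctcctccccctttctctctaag
In the PLK1, CCNB2 and ESPL1 windows the CHR letters lie about 30 bases before the start, with a CCAAT box upstream of them. The KIF20A and AURKB windows hold neither TTTGAA nor TTCGAA on either strand of their 300 bases, and no other letters were searched for as CHR. The CCAAT of AURKB lies 153 bases before the start, outside the stretch shown. A match of letters is a description of the sequence and not of binding. The 29 genes with both elements had a median log2 change of -0.41 in shEZH2 cells, beside -0.50 for the other 19, and of -0.85 in shE2F1 cells, beside -0.63.

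Per transcript length, the most abundant members in the Control shRNA libraries were UBE2C at 494 TPM (mean of 2 libraries), the CDK-binding proteins CKS2 at 439 TPM and CKS1B at 405 TPM, CDC20 at 383 TPM and CCNB1 and PTTG1 at 351 TPM each. The lowest were HMMR at 8.88 TPM, KNL1 at 18.5 TPM and CDC25C at 20.6 TPM. The summed level of the 55 genes was 10599 and 12258 CPM in the Control shRNA libraries, 7966 and 8312 CPM in the shEZH2 libraries, and 6581 and 6878 CPM in the shE2F1 libraries. It was 8103 and 8429 CPM with DMSO and 8131 and 8429 CPM with GSK126. Both Control shRNA libraries therefore stood above all other libraries, including the solvent controls of the inhibitor experiment, which differ from them in transduction, selection and experiment. Replicate 2 of Control shRNA was above replicate 1 for 53 of the 55 genes, with a median log2 difference of 0.21, while 49.7% of all genes were higher in replicate 2. In the heatmap of all members the knockdown libraries are bluer than their control across most rows, and the inhibitor libraries are not.

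**Figure D1:**
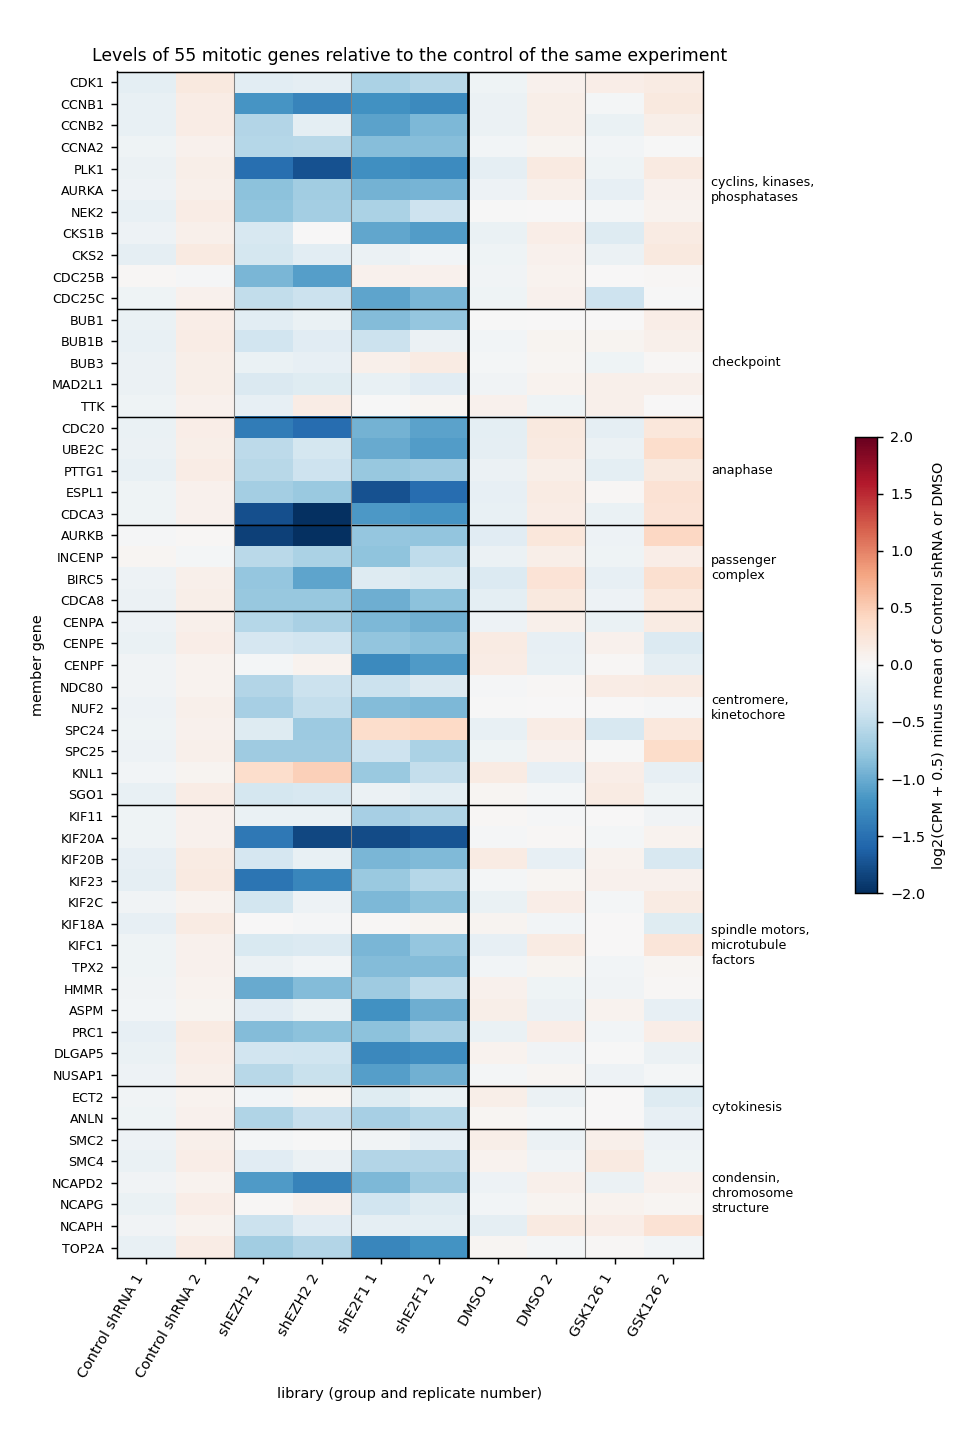
Level of each of the 55 members (rows, by role) in each of the 10 libraries (columns), as log2(CPM + 0.5) minus the mean of the 2 Control shRNA libraries (first 6 columns) or of the 2 DMSO libraries (last 4 columns). Blue is lower and red is higher. AURKB and CDCA3 are darkest in the shEZH2 columns, KIF20A and ESPL1 in the shE2F1 columns, and KNL1 is red in shEZH2 and blue in shE2F1.

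The first comparison asked how depletion of EZH2 moved the mitotic genes. In shEZH2 cells 37 of the 55 members were lower than with Control shRNA and 1 was higher (KNL1), at an adjusted p under 0.05 (edgeR's quasi-likelihood test, Benjamini-Hochberg over all genes tested), while 28.6% of all tested genes were lower and 27.0% were higher. The median log2 change of the members was -0.49, against -0.02 over all genes. At the stricter threshold of adjusted p under 0.01 and more than 2-fold change, 9 members were lower and none was higher, beside 10.7% of all genes that were lower. These 9 were AURKB, CDCA3, PLK1, KIF20A, CDC20, KIF23, CCNB1, NCAPD2 and CDC25B. Without replicate 2 of Control shRNA the members' median was -0.34, and without replicate 1 of Control shRNA it was -0.58.

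The second comparison asked the same of E2F1. In shE2F1 cells 42 members were lower and none was higher (23.7% and 21.1% of all tested genes), and the median log2 change was -0.79, against 0.00 over all genes. At the stricter threshold 15 were lower, beside 5.96% of all genes: KIF20A, ESPL1, DLGAP5, CCNB1, PLK1, TOP2A, CENPF, CDCA3, ASPM, CKS1B, UBE2C, NUSAP1, CDC20, CDC25C and CCNB2. DESeq2 found 41 lower members and none higher, and SPC24, which missed the threshold here at a log2 change of 0.37 ± 0.15, passed as higher under some settings. Both comparisons use the same 2 Control shRNA libraries, so a high control library moves both in the same direction.

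A further test compared the knockdowns directly and contains no control library. Of the 55 members, 24 were higher in shEZH2 cells than in shE2F1 cells (29.7% of all genes) and 10 were lower (30.6%), with a median log2 difference of 0.14. Past the stricter threshold, CENPF and KNL1 were higher (10.4% of all genes) and AURKB and CDC25B were lower (12.9%) in shEZH2 cells. Of these, only AURKB (-1.10) stayed beyond 2-fold after each library was corrected for GC content and length, where CKS1B came to 1.13.

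**Figure D2:**
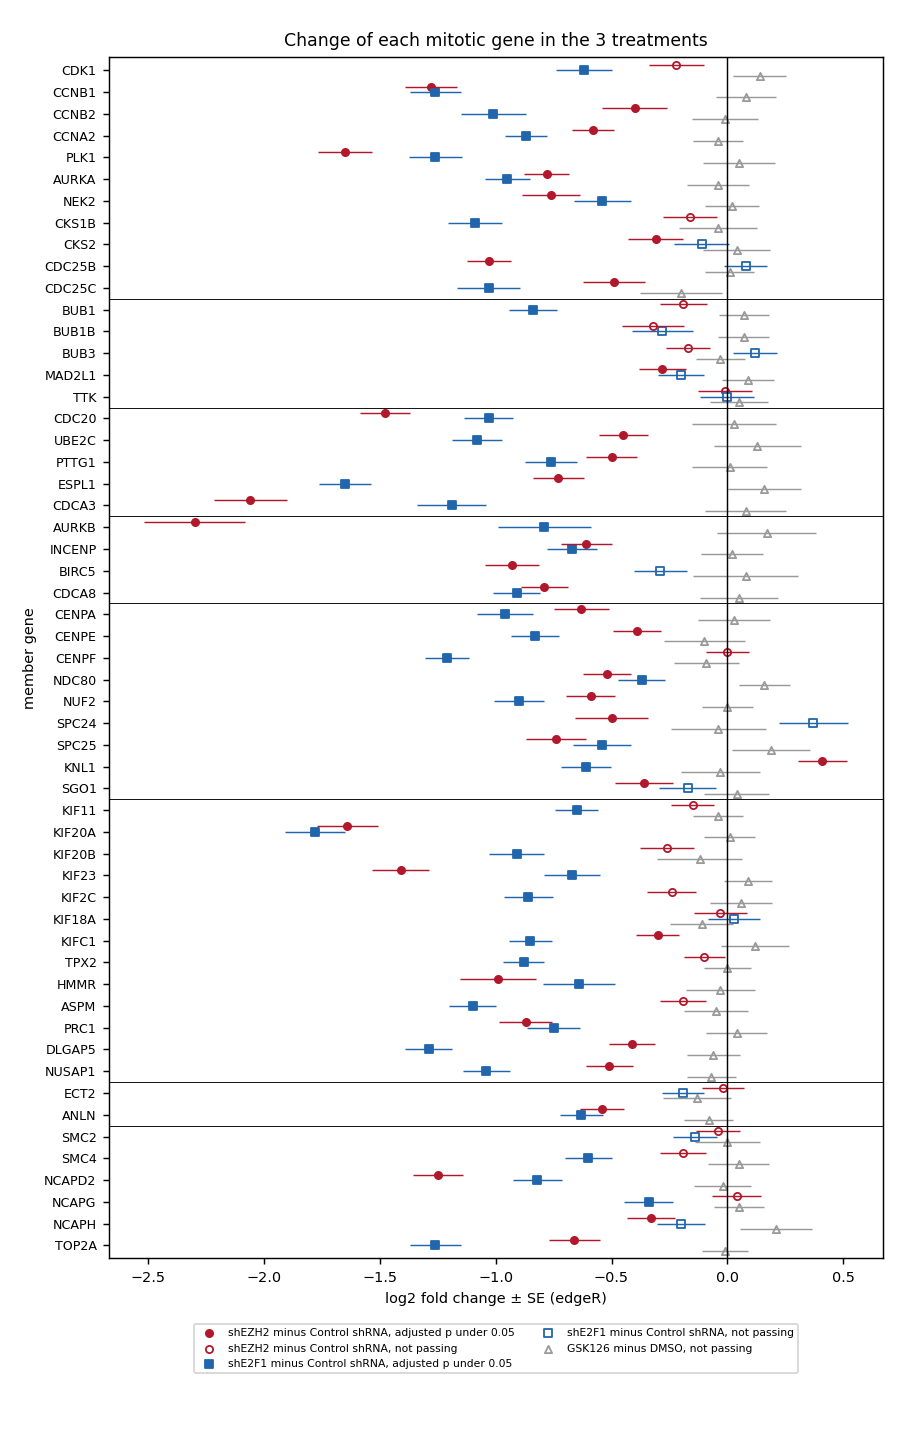
Log2 fold change with its SE for each member (rows, in the role order of the heatmap) in shEZH2 (red circles) and shE2F1 (blue squares) against Control shRNA and in GSK126 against DMSO (grey triangles). Filled symbols passed at adjusted p under 0.05. The grey symbols all lie within 0.21 of 0, while the red and blue symbols are mostly to the left of it.

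Among the 11 mitotic cyclins, kinases and phosphatases, 9 were lower in each knockdown, beside 28.6% of all genes in shEZH2 and 23.7% in shE2F1. CCNB1, cyclin B1, was at 319 and 392 CPM with Control shRNA, 155 and 141 CPM with shEZH2 and 153 and 146 CPM with shE2F1. The knockdowns lay side by side for this gene, with a difference between them of -0.02 ± 0.11. PLK1, the polo kinase of mitotic entry and spindle assembly, was at 163 and 193 CPM with Control shRNA, 62.2 and 52.6 CPM with shEZH2 and 75.7 and 73.6 CPM with shE2F1. It was lower in shEZH2 than in shE2F1 by a log2 difference of -0.39 ± 0.12 (adjusted p = 0.0138). That difference no longer passed after each library was corrected for GC content and length together, called GC correction here. AURKA, the kinase of spindle poles, was at 228 and 265 CPM, 139 and 151 CPM, and 127 and 129 CPM in the same order, with changes of -0.78 ± 0.10 and -0.95 ± 0.10. CCNA2, cyclin A2, changed by -0.58 and -0.87, and NEK2, a kinase of centrosome separation, by -0.76 and -0.54.

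CDK1 itself moved less than its cyclins. It was at 98.6 and 129 CPM with Control shRNA, 97.1 and 100 CPM with shEZH2 and 72.7 and 76.5 CPM with shE2F1. The shEZH2 libraries overlapped the controls and did not pass (-0.22 ± 0.12, adjusted p = 0.15), whereas shE2F1 did (-0.62 ± 0.12, adjusted p = 0.00193). CKS1B, which binds CDK1, was at 167 and 192 CPM, 144 and 180 CPM, and 86.7 and 82.3 CPM, so that the shEZH2 libraries overlapped the controls and the shE2F1 libraries did not. CDC25B and CDC25C are both phosphatases that activate CDK1, and they went apart. CDC25B was at 199 and 191 CPM with Control shRNA, 103 and 90.2 CPM with shEZH2 and 208 and 207 CPM with shE2F1, a log2 difference between the knockdowns of -1.11 ± 0.10 (adjusted p = 3.89e-06). The CDC25B difference was -0.79 after GC correction. CDC25C was lower in both, by -0.49 ± 0.13 and -1.03 ± 0.14, and was higher in shEZH2 than in shE2F1 by 0.55 ± 0.14. CDC25C was at 22.6 and 25.7 CPM with Control shRNA, 17.0 and 17.7 CPM with shEZH2 and 11.3 and 12.5 CPM with shE2F1. CCNB2 was lower by both hairpins (-0.40 and -1.01), and CKS2 passed only narrowly in shEZH2 (-0.31 ± 0.12, adjusted p = 0.0489), with -0.11 ± 0.12 in shE2F1.

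Of the 5 spindle checkpoint genes 1 was lower in each knockdown, MAD2L1 in shEZH2 (28.6% of all genes were lower) and BUB1 in shE2F1 (23.7%). The MAD2L1 call in shEZH2 changed under 6 of 14 alternative settings. BUB1, a checkpoint kinase at kinetochores, was at 204 and 245 CPM with Control shRNA, 193 and 204 CPM with shEZH2 and 122 and 130 CPM with shE2F1. It passed in shE2F1 (-0.84 ± 0.10, adjusted p = 8.94e-05), and BUB1 was higher in shEZH2 than in shE2F1 by 0.65 ± 0.10 (adjusted p = 0.00027). MAD2L1, which blocks CDC20 when kinetochores are unattached, had -0.28 ± 0.10 in shEZH2 and -0.20 ± 0.10 in shE2F1. BUB1B, the BUBR1 subunit of the checkpoint complex, had values of -0.32 ± 0.13 and -0.28 ± 0.13 that missed the threshold. BUB3, its partner, had -0.17 and 0.12. TTK, the MPS1 kinase at the top of the pathway, was at 67.4 and 76.0 CPM with Control shRNA, 63.6 and 79.8 CPM with shEZH2 and 71.0 and 73.2 CPM with shE2F1, so that all 3 groups overlapped. After correction for GC content and length, 4 of the 5 were lower in shEZH2 (25.9% of all genes). They were BUB1 (-0.27, adjusted p = 0.027 with edgeR), BUB1B (-0.39), BUB3 (-0.47) and MAD2L1 (-0.49).

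All 5 genes listed here under anaphase and its timing were lower in both knockdowns (28.6% and 23.7% of all genes), with medians of -0.73 and -1.08. CDC20, the activator of the anaphase-promoting complex, was at 362 and 431 CPM with Control shRNA, 150 and 137 CPM with shEZH2 and 204 and 187 CPM with shE2F1. Every knockdown library was below every control library, and shEZH2 was below shE2F1 by -0.45 ± 0.11, a difference that was 0.00 after GC correction. CDCA3, an adaptor of ubiquitin ligases, was at 101 and 113 CPM, 31.1 and 21.0 CPM, and 47.7 and 46.9 CPM, with a change of -2.06 ± 0.16 in shEZH2 (adjusted p = 4.19e-06) and -1.19 ± 0.15 in shE2F1. ESPL1, separase, fell most in shE2F1. It was at 95.8 and 109 CPM with Control shRNA, 63.7 and 60.7 CPM with shEZH2 and 30.3 and 35.3 CPM with shE2F1, with a log2 difference of 0.92 ± 0.11 between the knockdowns. UBE2C, the ubiquitin-conjugating enzyme of the complex, changed by -0.45 and -1.08, and PTTG1, securin, by -0.50 and -0.76. UBE2C no longer passed in shEZH2 after GC correction (-0.22, adjusted p = 0.0571 with edgeR).

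The chromosomal passenger complex corrects faulty attachments with its kinase AURKB and the subunits INCENP, BIRC5 and CDCA8. All 4 were lower in shEZH2 (28.6% of all genes) and 3 were lower in shE2F1 (23.7%). AURKB was at 119 and 124 CPM with Control shRNA, 33.0 and 17.3 CPM with shEZH2 and 70.5 and 70.0 CPM with shE2F1. Before GC correction this was the largest change of any member, a log2 value of -2.30 ± 0.22 in shEZH2 (adjusted p = 1.3e-05). After it AURKB was at -1.87 and CDCA3 at -1.94. In shE2F1 the AURKB value was -0.79 ± 0.20, and the direct difference of -1.50 ± 0.22 passed (adjusted p = 0.000141). The direct difference was -1.10 after GC correction. The AURKB value in shE2F1 did not pass in DESeq2 or when either shE2F1 library was left out. BIRC5, survivin, was at 140 and 162 CPM, 88.1 and 72.1 CPM, and 126 and 122 CPM, and it was lower in shEZH2 than in shE2F1 by -0.64 ± 0.12. INCENP, the scaffold, changed by -0.61 and -0.67, and CDCA8, borealin, by -0.79 and -0.91, with no difference between the knockdowns past the test. After GC correction INCENP did not pass in shEZH2 (-0.25, adjusted p = 0.0568 with edgeR) and was higher in shEZH2 than in shE2F1 by 0.31 (adjusted p = 0.0257).

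**Figure D3:**
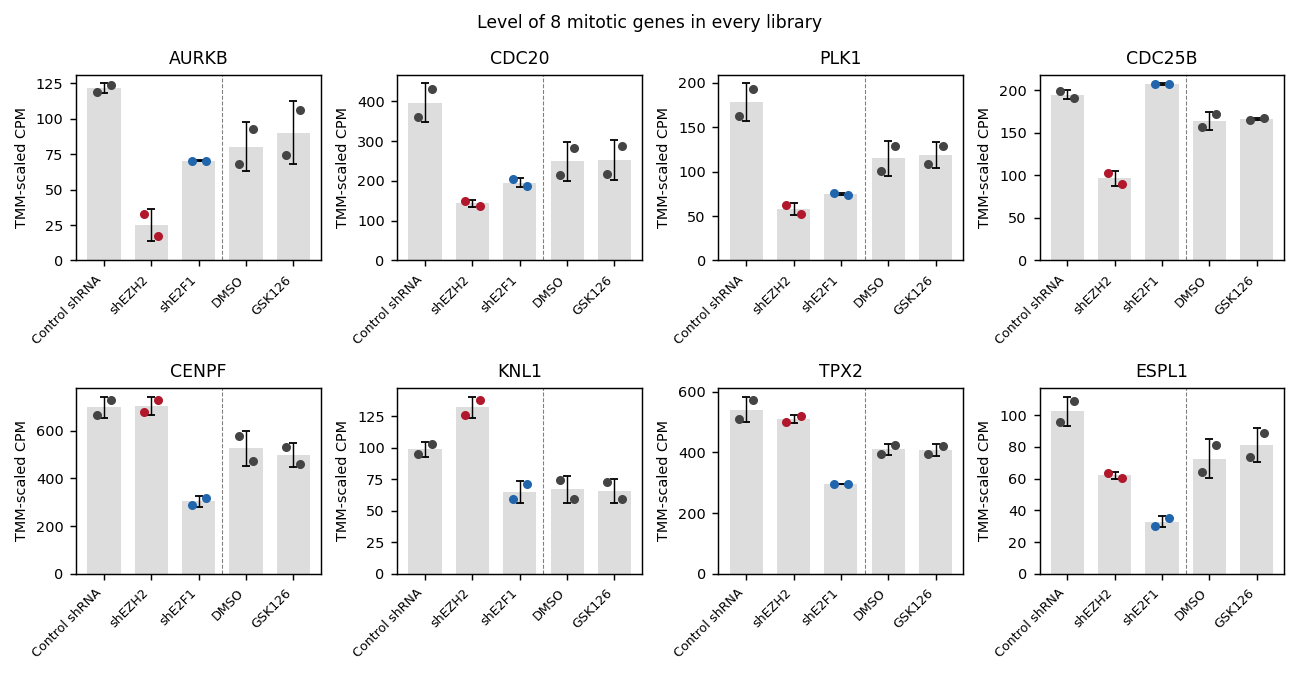
TMM-scaled CPM of 8 members in every library: points are libraries, bars are the means of 2 libraries and error bars are their SD. The dashed line separates the knockdown from the inhibitor experiment. AURKB and CDC25B are lowest with shEZH2, CENPF, TPX2 and ESPL1 are lowest with shE2F1, and KNL1 is above its control with shEZH2.

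The 9 centromere and kinetochore genes held members that moved in opposite directions. In shEZH2 7 were lower and 1 was higher (28.6% and 27.0% of all genes), and in shE2F1 7 were lower (23.7%). CENPF, a large kinetochore and microtubule-binding protein, was at 666 and 730 CPM with Control shRNA, 679 and 730 CPM with shEZH2 and 288 and 319 CPM with shE2F1. The shEZH2 libraries sat inside the control range. The difference from shE2F1 of 1.21 ± 0.10 (adjusted p = 2.27e-06) was the largest in this direction, and it was 0.81 after GC correction. KNL1, the kinetochore scaffold that recruits BUB1, was at 94.7 and 103 CPM with Control shRNA, 126 and 138 CPM with shEZH2 and 59.0 and 70.9 CPM with shE2F1. It was the only member to pass as higher in shEZH2 (0.41 ± 0.11, adjusted p = 0.0075), and this value was 0.04 after GC correction, while its difference from shE2F1 was 1.02 ± 0.11 before and 0.62 after. The 4 subunits of the NDC80 complex, which grips microtubule ends, did not move as 1. NDC80 was at 86.0 and 95.2 CPM, 60.1 and 67.2 CPM, and 67.2 and 73.9 CPM, and was lower in both (-0.52 ± 0.10 and -0.37 ± 0.10). NUF2 changed by -0.59 and -0.90 and SPC25 by -0.74 and -0.54. SPC24 was at 26.5 and 29.7 CPM with Control shRNA, 23.4 and 16.8 CPM with shEZH2 and 35.9 and 37.3 CPM with shE2F1, so that it was lower in shEZH2 (-0.50 ± 0.16) and the difference between the knockdowns was -0.88 ± 0.15. The SPC24 value in shEZH2 lost its call under 5 of 14 alternatives, among them GC correction (-0.25, adjusted p = 0.174 with edgeR). CENPA, the centromeric histone H3 variant, changed by -0.63 and -0.96 and CENPE, a kinetochore motor, by -0.39 and -0.83. SGO1, which protects centromeric cohesin, was lower in shEZH2 (-0.36 ± 0.13) with a value of -0.17 ± 0.12 in shE2F1. Its call in shEZH2 changed under 6 of 14 alternatives, and the difference between the knockdowns (-0.20) did not pass.

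Of the 13 spindle motors and microtubule factors, 7 were lower in shEZH2 (28.6% of all genes) and 12 in shE2F1 (23.7%). In the direct test 8 were higher in shEZH2 than in shE2F1 (29.7% of all genes). KIF20A, the kinesin that carries the passenger complex to the midzone, was at 173 and 196 CPM with Control shRNA, 68.3 and 51.8 CPM with shEZH2 and 53.1 and 55.2 CPM with shE2F1. It had the largest change in shE2F1 (-1.78 ± 0.13, adjusted p = 3.52e-06), and shEZH2 lay beside it (-1.64 ± 0.13). KIF23, the centralspindlin kinesin, was at 206 and 262 CPM, 84.2 and 93.8 CPM, and 139 and 157 CPM, and was lower in shEZH2 than in shE2F1 by -0.74 ± 0.12. It was the only 1 of the 13 to pass in that direction (30.6% of all genes). TPX2, which activates AURKA on the spindle, was at 511 and 571 CPM, 500 and 519 CPM, and 297 and 296 CPM. The shEZH2 value of -0.10 ± 0.09 did not pass and the shE2F1 value of -0.88 ± 0.09 did. ASPM, a spindle pole protein, was at 305 and 329 CPM, 272 and 289 CPM, and 137 and 161 CPM, with -0.19 ± 0.10 in shEZH2 and -1.10 ± 0.10 in shE2F1. DLGAP5, a microtubule-binding protein, was at 196 and 234 CPM, 164 and 162 CPM, and 87.2 and 90.1 CPM, with -0.41 ± 0.10 and -1.29 ± 0.10.

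The kinesins KIF11, KIF20B and KIF2C did not pass in shEZH2 (-0.15, -0.26 and -0.24) and were lower in shE2F1 (-0.65, -0.91 and -0.86). After GC correction KIF11 (-0.35) and KIF20B (-0.55) passed in shEZH2, and KIF2C (-0.13) did not. KIFC1, a minus-end motor, was lower in both, at -0.30 and -0.85, but its value in shEZH2 turned to 0.12 after GC correction. KIF18A, which limits chromosome oscillation, was at 55.2 and 69.0 CPM with Control shRNA, 61.9 and 61.0 CPM with shEZH2 and 63.0 and 64.2 CPM with shE2F1, and passed in neither (-0.03 and 0.03). HMMR changed by -0.99 and -0.64. PRC1, the midzone bundler, changed by -0.87 and -0.75, and NUSAP1 by -0.51 and -1.04. For these last genes 50.7% (PRC1) and 78.2% (NUSAP1) of all 50-base stretches of their transcripts also occur in another annotated gene that reads through them, so their counts depend on how the authors' estimate divided those reads. For the other 53 members this share was 8.82% or less. Exons of PRC1, NCAPG and SMC4 overlap genes on the opposite strand over 34.3%, 33.7% and 22.0% of their bases, and without a stated strand setting such reads cannot be told apart.

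The pair of cytokinesis genes differed from each other. ANLN, anillin of the contractile ring, was at 787 and 880 CPM with Control shRNA, 549 and 604 CPM with shEZH2 and 527 and 558 CPM with shE2F1, and was lower in both (-0.54 ± 0.09 and -0.63 ± 0.09). ECT2, the exchange factor that activates RhoA, was at 224 and 245 CPM, 225 and 242 CPM, and 198 and 214 CPM, and passed in neither.

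Condensin and chromosome structure held members at both ends. TOP2A, topoisomerase II alpha, was at 864 and 1069 CPM with Control shRNA, 594 and 639 CPM with shEZH2 and 390 and 419 CPM with shE2F1, with changes of -0.66 ± 0.11 and -1.26 ± 0.11 and a difference of 0.60 ± 0.11 between the knockdowns. Within condensin I, NCAPD2 was at 435 and 476 CPM, 207 and 179 CPM, and 243 and 277 CPM, and was lower in both (-1.25 ± 0.11 and -0.82 ± 0.11). The ATPase SMC4 was at 278 and 333 CPM, 261 and 279 CPM, and 202 and 203 CPM, which passed in shE2F1 (-0.60 ± 0.10) and not in shEZH2 (-0.19 ± 0.10). NCAPH, the kleisin that closes the ring, was at 75.5 and 83.4 CPM, 58.8 and 68.1 CPM, and 69.7 and 69.5 CPM, which passed in shEZH2 (-0.33 ± 0.10) and not in shE2F1 (-0.20 ± 0.10). Between the knockdowns NCAPH differed by -0.14 ± 0.10, which did not pass, and by -0.38 after GC correction, which did. The SMC4 difference of 0.41 ± 0.10 passed, and after GC correction it was 0.18 and did not. NCAPG had values of 0.04 and -0.34, the latter past the test. SMC2, the partner ATPase, had -0.04 and -0.14 and passed in neither. After GC correction both ATPases passed as lower in shEZH2, SMC4 at -0.42 and SMC2 at -0.31.

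The size of the shEZH2 change varied with base composition. Across the 55 members, the log2 change in shEZH2 and the GC content of the longest annotated transcript had a Pearson correlation of -0.54. Across 15366 genes it was -0.24. These are descriptions across genes, which share libraries and are no replicates. The 27 members above the median GC content of 42.1% had a median change of -0.63, and the other 28 of -0.27. After each library was corrected for GC content and length these medians were -0.49 and -0.48, and the correlation among members was -0.24. The correction lowered AURKB from -2.30 to -1.87, CDC20 from -1.48 to -0.99 and CDC25B from -1.03 to -0.61 in size, and it deepened ASPM from -0.19 to -0.58, KIF20B from -0.26 to -0.55 and CENPF from 0.00 to -0.35. After it 42 members were lower in shEZH2 and none was higher (25.9% and 28.8% of all genes). The correction brought BUB1, BUB1B, BUB3, CENPF, KIF11, KIF20B, ASPM, SMC2 and SMC4 past the threshold and took UBE2C, INCENP, SPC24, KNL1 and KIFC1 below it. In shE2F1 the same correlations were -0.20 among members and -0.02 over all genes. For the direct difference between the knockdowns they were -0.35 and -0.20. The correction fits GC content and length together, so shifts under it cannot be assigned to GC content alone. Some members of low GC content hardly moved: CDK1 (37.0%) went from -0.22 to -0.20 and NUF2 (38.8%) from -0.59 to -0.57. The parts of GC content and of length in these changes were not tested.

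**Figure D4:**
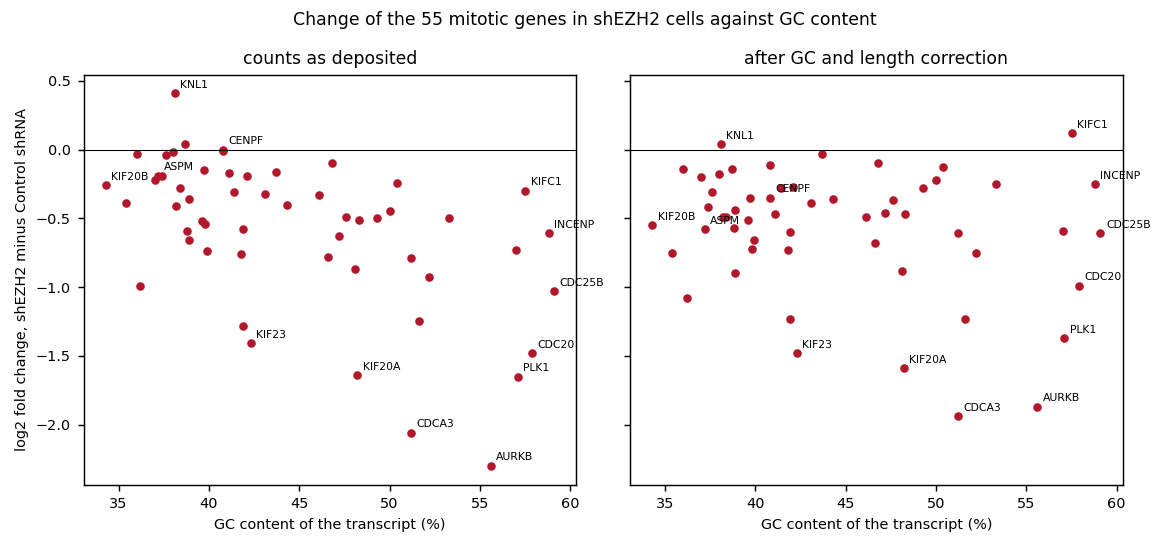
Log2 change in shEZH2 against Control shRNA (vertical axis) against GC content of the transcript in percent (horizontal axis) for the 55 members, from the counts as deposited (left) and after per-library correction for GC content and length (right). The cloud slopes down to the right on the left side (r = -0.54) and less on the right side (r = -0.24). AURKB and CDCA3 are the lowest points in both, and KNL1 moves from 0.41 to 0.04.

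The inhibitor comparison asked whether inhibition of the enzyme, in place of its depletion, moved the same genes. No member passed in GSK126 against DMSO, nor did any of the 14632 genes tested (0.0%). At an unadjusted p under 0.05, 0 of the 55 members and 577 of all genes (3.94%) were counted, and DESeq2 called 0 members and 19 genes. The members' log2 changes ran from -0.20 to 0.21 with a median of 0.02, and their SEs from 0.099 to 0.227. In shEZH2 the members' changes ran from -2.30 (AURKB) to 0.41 (KNL1) with a median of -0.49. The members with the smallest unadjusted p on the higher side were NDC80 (0.16 ± 0.11), NCAPH (0.21 ± 0.16) and CDK1 (0.14 ± 0.12), and on the lower side CDC25C (-0.20 ± 0.18), ECT2 (-0.13 ± 0.15) and KIF18A (-0.11 ± 0.14).

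For several members the inhibitor experiment differed more between replicate numbers than between treatments. AURKB was at 68.1 and 92.7 CPM with DMSO and at 74.4 and 106 CPM with GSK126, replicate 1 before replicate 2. CDC20 was at 215 and 283 CPM with DMSO and 218 and 289 CPM with GSK126, and PLK1 at 101 and 129 CPM with DMSO and 108 and 129 CPM with GSK126. CENPF went the other way, from 579 to 475 CPM with DMSO and from 533 to 462 CPM with GSK126. For these 4 genes the treated and untreated libraries of the same number lay close together. With the replicate number as a block, a fit with 1 residual degree of freedom, the call changed: 7 members were higher and 2 were lower with GSK126 (6.3% and 7.3% of all genes). The higher ones were NCAPH (0.21 ± 0.06), ESPL1, AURKB and NDC80 (0.16 each), CDK1 (0.15), and UBE2C and KIFC1 (0.12 each), and the lower ones were ECT2 (-0.13 ± 0.04) and ANLN (-0.08 ± 0.03). The labels do not say whether a number marks libraries made together. CCNB1 was at 255 and 299 CPM with DMSO and 269 and 315 CPM with GSK126, BIRC5 at 101 and 147 CPM and at 109 and 153 CPM, and AURKA at 176 and 202 CPM and at 168 and 200 CPM. KIF20A was at 118 and 123 CPM with DMSO and 117 and 127 CPM with GSK126, TPX2 at 396 and 423 CPM and at 394 and 422 CPM, and BUB1 at 148 and 149 CPM and at 149 and 163 CPM. KIF20A, TPX2 and BUB1 showed little spread over the 4 libraries. The structural genes ran alike: TOP2A was at 614 and 584 CPM with DMSO and 610 and 577 CPM with GSK126, SMC4 at 247 and 225 CPM and at 267 and 221 CPM, and ANLN at 640 and 609 CPM and at 626 and 559 CPM. CDK1 at 74.9 and 84.9 CPM against 87.2 and 89.3 CPM, and NDC80 at 59.5 and 61.0 CPM against 66.5 and 67.8 CPM, did not overlap between the groups, while NCAPH at 44.6 and 57.9 CPM against 55.7 and 62.4 CPM did. BUB1, MAD2L1, KIF23 and NUSAP1 did not overlap either, and the share of all genes without overlap was not counted. On the lower side, CDC25C at 18.5 and 21.0 CPM with DMSO against 14.7 and 19.6 CPM with GSK126, ECT2 at 215 and 183 CPM against 200 and 165 CPM, and KIF18A at 59.6 and 55.6 CPM against 58.1 and 48.8 CPM all overlapped.

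The difference between depletion and inhibition was tested in 1 fit of all 10 libraries, as the change in shEZH2 against Control shRNA minus the change in GSK126 against DMSO. By this test 26 members were lower and none was higher, beside 19.7% and 16.9% of 15773 genes, and 9 were lower past the stricter threshold, beside 8.67%. The 9 were AURKB (-2.45 ± 0.34, adjusted p = 0.000293), CDCA3 (-2.13 ± 0.26), PLK1 (-1.68 ± 0.21), KIF20A (-1.63 ± 0.19), CDC20 (-1.49 ± 0.22), KIF23 (-1.48 ± 0.18), CCNB1 (-1.34 ± 0.19), NCAPD2 (-1.22 ± 0.18) and CDC25B (-1.03 ± 0.15). For KNL1 the difference of 0.45 ± 0.20 did not pass (adjusted p = 0.105). The experiments also differ in transduction and selection, and the high summed level in the Control shRNA libraries enters this contrast, so these cannot be told apart from the difference between the agents.

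Of 3 genes read beside the members, FOXM1, a transcription factor of G2 genes, was at 355 and 389 CPM with Control shRNA, 359 and 364 CPM with shEZH2 and 233 and 229 CPM with shE2F1. It passed only in shE2F1 (-0.69 ± 0.09) and differed between the knockdowns by 0.64 ± 0.09. MYBL2, the B-MYB partner of MuvB, was at 78.5 and 86.6 CPM, 45.8 and 27.7 CPM, and 118 and 119 CPM, lower in shEZH2 (-1.19 ± 0.18) and higher in shE2F1 (0.51 ± 0.17, adjusted p = 0.0333). Its knockdown libraries lay on opposite sides of the control. MKI67, the proliferation marker, was lower in both (-0.53 ± 0.11 and -0.90 ± 0.11).

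A wider list held 99 other mitotic genes. In shEZH2 39 were lower and 18 higher, with a median of -0.15, beside 28.6% and 27.0% of all genes, and in shE2F1 49 were lower and 13 higher, with a median of -0.26, beside 23.7% and 21.1%. By subgroup, other spindle and cytokinesis factors had 12 of 25 lower and 2 higher in shEZH2 and 21 of 25 lower and 0 higher in shE2F1, while the inner kinetochore had 4 and 6 of 17 lower and 3 and 5 of 17 higher. In the anaphase-promoting complex 8 and 7 of 15 were lower and 4 and 2 were higher. Cohesin and its regulators had 5 and 7 of 13 lower and 3 and 0 higher, the outer kinetochore and checkpoint 6 and 3 of 14 lower and 1 and 3 higher. Mitotic regulators had 4 and 3 of 12 lower and 5 and 2 higher, and condensin II 0 and 2 of 3 lower and 0 and 1 higher. The smallest p-values in shEZH2 belonged to TROAP (-1.40 ± 0.09), PSRC1 (-1.37 ± 0.11) and HAUS1, an augmin subunit (-1.93 ± 0.16), and in shE2F1 to PSRC1 (-1.57 ± 0.11), the kinesin KIF2A (-1.10 ± 0.09) and the centromere protein CENPO (-1.04 ± 0.09). None of the 99 passed with GSK126.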

How the data were processed

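Directional libraries of polyA RNA were sequenced. Per the labels, reads were aligned to GRCh38 with STAR 2.7.2b, and the authors estimated expected counts, effective lengths and TPM per gene with RSEM 1.3.1 on an Ensembl annotation; the strand setting is not given in the sources used here. The 18 deposited sample records held 10 distinct libraries, since 8 repeated another value for value and were counted once. Expected counts were rounded, and genes were kept by filterByExpr, scaled by TMM and tested with edgeR 4.0.16 (R 4.3.3), the 6 knockdown libraries in 1 fit and the 4 inhibitor libraries in another, and p-values were adjusted by Benjamini-Hochberg over every gene of a fit; DESeq2 1.42.0, the tool of the study, was an alternative. SEs are the log2 change divided by the square root of F. The deposited TPM was used only to compare levels between genes, and the deposited effective length (no expression unit) only as an offset in 1 alternative. GC content, length and positions came from GENCODE 44 (99.9% of identifiers matched), promoter sequences from RefSeq. GC content and length were those of each gene's longest annotated transcript, which may not be the one expressed in these cells. The members and lists were chosen with earlier results of these data known. Values in every library are given for 16 members fixed by role, for the 5 largest changes that passed in each knockdown, the 5 largest differences per direction between the knockdowns, members that passed against the median sign, and the 3 smallest p-values per direction under GSK126; values of TTK and NCAPD2 were added after they were seen. The fits were tested on simulated counts. Limits from a count of 0 use 3 counts and cover counting error only.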

Additional observations from a re-analysis of the deposited data

How the results depend on the processing

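With 2 libraries per group, small changes such as that of CKS2 in shEZH2 were at the edge of what could be called. The direction of the members' median kept its sign in both knockdowns under every alternative. In shEZH2, 25 of the 38 members that passed did so under all 14 alternatives, and in shE2F1 36 of 42. Leaving out each library in turn gave medians of -0.58 to -0.34 in shEZH2 and -0.91 to -0.69 in shE2F1. The medians were 0.12 to 0.21 between the knockdowns and -0.58 to -0.35 for depletion minus inhibition. Under adjusted p below 0.01 with more than 2-fold change the lower members numbered 9 in shEZH2 (0 higher), 15 in shE2F1, 2 between the knockdowns (2 higher) and 9 for depletion minus inhibition. Of all genes, 10.7%, 5.96%, 12.9% (10.4% higher) and 8.67% were lower in the same order. After GC and length correction 0 members were higher in shEZH2, with or without the replicate block, and KIFC1 turned to 0.12 in shEZH2 under both. In shE2F1 1 member (SPC24) was higher with only the 4 libraries compared, with a mean of at least 50 counts, without a filter, and after GC and length correction with or without the block; the cause was not tested. Of the members that passed, no other one reversed; NCAPG, TTK and SMC2, which did not pass in shEZH2, ran from -0.14 to 0.18, -0.17 to 0.14 and -0.31 to 0.06 there.

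Replicate numbers are shared across groups, but the labels do not say that a number marks a shared day or culture, and each comparison has only 2 pairs. The replicate differences of DMSO and GSK126 correlated at 0.644 over 11919 genes and those of the knockdown groups at 0.0449 to 0.214. With the replicate number as a block, GSK126 gave 2 lower and 7 higher members (7.3% and 6.3% of all genes), with changes no larger than 0.21. With GC correction added the block gave 1 lower and 5 higher, where 2243 of 14632 genes passed in either direction. The 2 lower members without GC correction were ECT2 and ANLN. The block gave 34 lower and 1 higher members for depletion minus inhibition (24.2% and 22.0% of all genes). With GC correction added 41 were lower, where 7111 of 15773 genes passed in either direction. Without GC correction the block gave 40 lower members in shEZH2 (28.6% of all genes) and 43 in shE2F1 (23.9%). Between the knockdowns it gave 10 lower and 25 higher (30.6% and 29.6%).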

Other observations

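DNA replication genes, the S-phase arm of the proliferation program, were read beside the mitotic genes from a list of 18. In shEZH2 cells all 18 were lower than with Control shRNA, with log2 changes of -1.68 to -0.30 and a median of -0.63, where 28.6% of all tested genes were lower. In shE2F1 cells 6 were lower, 2 were higher and 10 did not pass, with a median of -0.18, where 23.7% of all genes were lower. In the direct test 14 of the 18 were lower in shEZH2 than in shE2F1 and none was higher (30.6% and 29.7% of all genes). Their median difference was -0.60, whereas the mitotic genes had a median difference of 0.14. No values after GC correction are given for this list. MCM6, a subunit of the replicative helicase, had changes of -1.68 ± 0.18 in shEZH2 and -0.66 ± 0.17 in shE2F1, while CDC45, which activates that helicase, had -1.35 ± 0.15 and -0.04 ± 0.14. TYMS, thymidylate synthase, was lower in both (-1.41 ± 0.14 and -0.90 ± 0.14), as were GINS1 (-0.95 ± 0.14 and -1.12 ± 0.14) and POLA1 (-1.01 ± 0.15 and -0.87 ± 0.15). None of the 18 passed with GSK126, where their median was 0.09.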
